A study of Mus musculus with 6 samples.

Results

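The genes described here carry the signals of 2 surface receptor systems of microglia, the colony-stimulating factor receptors and the TREM2-TYROBP complex. They are 10 of the 17872 genes in the count table: the growth factor Csf1, the receptors Csf1r, Csf2ra, Csf2rb and Trem2, the adaptors Tyrobp and Hcst, and the signal proteins Syk, Plcg2 and Inpp5d. They were listed by name for their place in these pathways, with earlier results of these data known. The RNA came from BV2, a mouse microglial line made immortal with oncogenes, and 3 libraries were sequenced per group, in 2 groups. The first group was wild type with no treatment. The second was labelled Tfam knockout, made with CRISPR-Cas9 to remove the protein that packages and transcribes mitochondrial DNA, and the question was how this loss alters the transcriptome. The same protocol is given for all 6 samples and names continuous culture in puromycin at 2 µg/mL after editing. The labels do not say whether the controls also grew in puromycin, which vector or guide they carried, or if the edited line was clonal. Nothing states that replicates came from separate cultures, so the p-values reflect only the scatter among these libraries, which could be technical.

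CSF1R is the receptor tyrosine kinase on which microglia depend for survival, and it binds CSF1 and IL-34. The GM-CSF receptor pairs a ligand-binding alpha chain, encoded by Csf2ra, with the signalling beta chain encoded by Csf2rb. TREM2 binds lipids and lipoproteins but has no signalling tail, and instead uses the adaptors TYROBP (DAP12) and HCST (DAP10). Phosphorylated tyrosines on TYROBP recruit the kinase SYK, which activates phospholipase C gamma 2 (PLCG2), and the lipid phosphatase SHIP1, encoded by Inpp5d, limits the response.

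Total counts per library ranged from 14642397 to 28418133 in the controls and from 13850691 to 20889786 in the libraries labelled Tfam knockout. Tfam mRNA was not lower in the latter, at 39.0, 38.5 and 37.1 CPM in controls 1 to 3 against 41.0, 42.7 and 43.2 CPM (log2 fold change 0.14 ± 0.0869 SE, edgeR adjusted p = 0.193), so the mRNA level does not check the labels. CPM are counts per 1e+06 counts after TMM scaling. With library totals in place of TMM factors the Tfam difference was 0.24 and passed the threshold. Of 13403 genes with enough counts to test, edgeR called 5926 at an adjusted p below 0.05, which is 44.2% (21.3% higher and 22.9% lower), and the median log2 fold change of all tested genes was 0.0012. Of 15 microglia and macrophage markers listed, 11 were in the count table and 8 averaged over 1 CPM, led by Cd68. The 11 summed to 3343 to 3695 CPM in controls and 2613 to 2927 CPM in the labelled knockout libraries. Aif1 and Cx3cr1 were low, at means of 2.53 and 1.31 CPM over the 6 libraries. Of the 8, 5 were lower and Adgre1 was higher (log2 fold change 0.61, edgeR adjusted p = 1.50e-05), while Ptprc at -0.06 and Aif1 at -0.49 did not pass. The microglial identity genes Tmem119, Sall1 and Olfml3 were at or near 0 in both groups. Summed markers of neurons, astrocytes, endothelium, fibroblasts, T cells and neutrophils each stayed below 10 CPM in every library, and those of oligodendrocytes, led by Mbp, were 24.0 to 25.5 CPM in controls and 11.9 to 14.1 CPM in the other group.

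All 10 genes differed between the groups: 9 were lower in the libraries labelled Tfam knockout and Syk alone was higher. The 10 calls stand against a background of 44.2% of tested genes called, and the 9 lower calls against 22.9%. That background includes genes with few counts. Under a filter of 5 CPM in at least 3 libraries, 5301 of 10075 tested genes were called, 2730 of them lower. Because the 10 were chosen with earlier results of these data known, these shares are a description and not a test. The median log2 fold change of the 10 was -0.57. In all 10 the values of the groups did not overlap, which was so for 52.9% of tested genes. The falls ranged from 1.25-fold for Csf2rb to 2.75-fold for Csf1r. Fewer expressing cells and less RNA per cell cannot be told apart in bulk RNA.

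**Figure D1:**
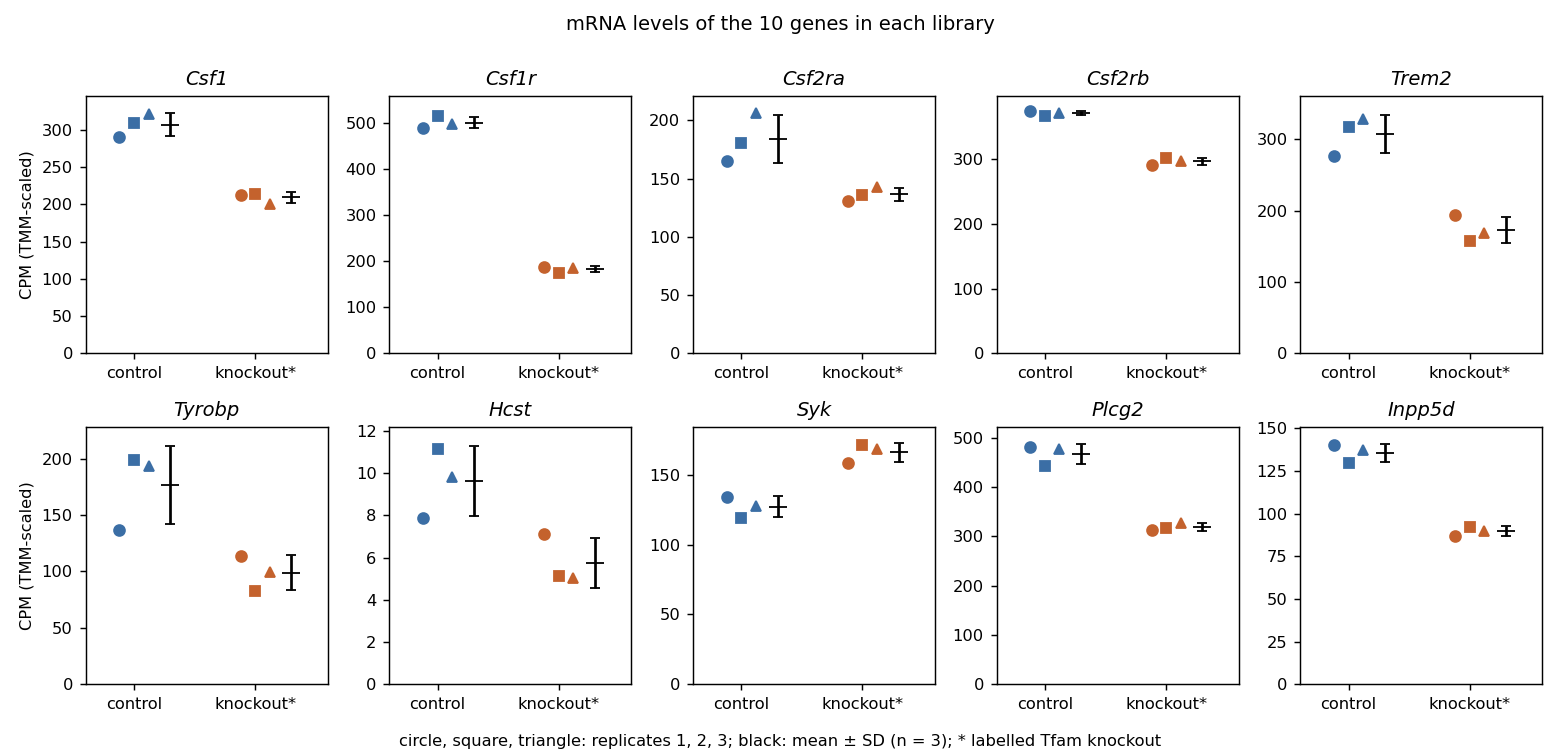
Level of each of the 10 genes in CPM (vertical axis, from 0) in the 3 control libraries (blue) and the 3 libraries labelled Tfam knockout (orange), with the mean ± SD beside each group. Csf1r shows the widest gap, from about 501 to 182 CPM, and Syk is the gene whose orange points lie above the blue ones.

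Csf1, which encodes the macrophage growth factor CSF1, was at 290, 309 and 321 CPM in controls 1 to 3 and at 213, 214 and 201 CPM in labelled knockout libraries 1 to 3. Every control value was above every labelled knockout value. The difference was 1.47-fold (log2 fold change -0.55, 95% interval -0.71 to -0.40, edgeR adjusted p = 1.11e-05).

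Csf1r, the receptor for CSF1, was at 489, 515 and 499 CPM in the controls and at 187, 175 and 184 CPM in the libraries labelled Tfam knockout. The means were 501 ± 12.8 and 182 ± 6.25 CPM (SD, n = 3), and the gap was many times the spread within either group. Csf1r was 2.75-fold lower, with a log2 fold change of -1.46 (95% interval -1.61 to -1.30, edgeR adjusted p = 8.89e-11). It stood at percentile 2.70 of all tested genes, counted from the most negative difference. Of the tested genes, 5.54% were called and at least 2-fold lower, and Csf1r was the only one of the 10 among them. The libraries do not mark strand, and 17.7% of the 50-base words of the Csf1r transcript also lie in a transcript of the overlapping gene Hmgxb3 on the other strand. Hmgxb3 itself was not lower: it averaged 62.7 CPM, with a log2 fold change of 0.35 (edgeR adjusted p = 0.0131, and 0.0741 without control replicate 2). How reads in the overlap were counted is not given, and their part in the Csf1r difference was not tested.

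Csf2ra, the chain of the GM-CSF receptor that binds the ligand, was at 165, 181 and 206 CPM in the controls and at 131, 136 and 143 CPM in the labelled knockout libraries. The control libraries spread more widely than the others, and the groups did not overlap. The difference was 1.35-fold (log2 fold change -0.43, 95% interval -0.61 to -0.26, edgeR adjusted p = 0.000416). Csf2rb, the beta chain shared with the receptors for IL-3 and IL-5, was at 374, 367 and 372 CPM in the controls and at 291, 302 and 296 CPM in the labelled knockout libraries. Its fall was the smallest of the 9 and its groups were tight, with SDs of 3.39 and 5.65 CPM (n = 3). It was 1.25-fold lower (log2 fold change -0.32, 95% interval -0.47 to -0.17, edgeR adjusted p = 0.00136). Its near-identical neighbour Csf2rb2, an IL-3 receptor beta chain found in mice, fell from 188 ± 6.72 to 128 ± 4.79 CPM (SD, n = 3; log2 fold change -0.55, edgeR adjusted p = 6.57e-06). Csf2rb shares 18.4% of its 50-base words with Csf2rb2, and the way reads matching both were counted is not given, so the split between the 2 genes is uncertain.

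Trem2, the lipid-sensing receptor, was at 277, 318 and 328 CPM in the controls and at 194, 157 and 168 CPM in the labelled knockout libraries. Control replicate 1 was the lowest control and labelled knockout replicate 1 the highest of its group, and the groups did not overlap. Trem2 was 1.78-fold lower (log2 fold change -0.83, 95% interval -1.02 to -0.64, edgeR adjusted p = 1.09e-06). Among the 10, Trem2 and Csf1r were the only genes that also passed a test against a change of 1.5-fold, with an adjusted p of 0.0219 for Trem2 (edgeR glmTreat).

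The adaptors fell with it. TYROBP signals through a pair of tyrosines in its immunoreceptor tyrosine-based activation motif (ITAM), and HCST through a single tyrosine in a motif that binds phosphoinositide 3-kinase. The coding stretches of these motifs are shown because they set the 2 adaptors apart, with the tyrosine codons in capitals. The Tyrobp stretch is coding bases 274 to 318 of 345 and the Hcst stretch is bases 214 to 225 of 240, both from GENCODE M21 transcripts (build GRCm38, chromosome 7).
Tyrobp: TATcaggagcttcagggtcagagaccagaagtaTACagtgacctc
Hcst: TACatcaacatg
Tyrobp was at 136, 199 and 193 CPM in the controls and at 114, 83.0 and 99.9 CPM in the labelled knockout libraries. Control replicate 1 lay well under the other controls but still above every labelled knockout library. The difference was 1.78-fold (log2 fold change -0.83, 95% interval -1.09 to -0.56, edgeR adjusted p = 4.30e-05). Hcst was the scarcest of the 10, at 7.86, 11.1 and 9.84 CPM in the controls and 7.13, 5.11 and 5.02 CPM in the labelled knockout libraries, from 72 to 221 counts per library. Its closest values, 7.86 in control replicate 1 and 7.13 in labelled knockout replicate 1, nearly met. It was 1.64-fold lower, with the widest interval of the 10 (log2 fold change -0.71, 95% interval -1.11 to -0.32, edgeR adjusted p = 0.00535).

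The Tyrobp and Hcst transcripts are short, at 597 and 442 bases, and short transcripts moved with the library. Over 1430 tested genes with a coding transcript under 1000 bases, the median deviation from the group mean (log2) was -0.14, 0.11 and 0.052 in controls 1 to 3 and 0.10, -0.13 and 0.046 in the labelled knockout libraries. The deviations of Tyrobp had the same signs in every library, at -0.35, 0.20 and 0.15 and then 0.21, -0.24 and 0.028. Those of Hcst, at -0.27, 0.23 and 0.047 and then 0.32, -0.15 and -0.17, had the opposite sign in labelled knockout replicate 3. These short genes had a median log2 fold change between the groups of -0.21, against 0.018 for the other genes. Leaving out any 1 library kept both calls, with Tyrobp at -0.97 to -0.72 and Hcst at -0.91 to -0.59. With offsets that correct each library for length and GC content, an alternative chosen after seeing the data, Tyrobp remained lower at -0.56 (edgeR adjusted p = 9.16e-06). Under the same offsets Hcst stood at -0.39 and did not pass (edgeR adjusted p = 0.0608). Trem2, with a transcript of 1088 bases, stood at -0.66, Csf2ra, with 1849 bases, at -0.29 and Csf1r, with 4701 bases, at -1.43. The part of transcript length in these differences was not otherwise tested.

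Syk, the kinase recruited by ITAM adaptors, was the exception. It was at 134, 119 and 128 CPM in the controls and at 158, 171 and 168 CPM in the labelled knockout libraries. Every labelled knockout value was above every control value. The rise was 1.31-fold (log2 fold change 0.38, 95% interval 0.23 to 0.54, edgeR adjusted p = 0.000385). Plcg2, which encodes the phospholipase that SYK activates, moved the other way, from 482, 443 and 476 CPM in the controls to 313, 317 and 328 CPM. It was 1.46-fold lower without overlap of the groups (log2 fold change -0.55, 95% interval -0.71 to -0.39, edgeR adjusted p = 1.34e-05). Inpp5d, encoding the inhibitory phosphatase SHIP1, was at 140, 130 and 137 CPM in the controls and at 86.8, 92.4 and 89.8 CPM in the labelled knockout libraries. Both groups were tight and far apart, with a 1.51-fold fall (log2 fold change -0.60, 95% interval -0.75 to -0.45, edgeR adjusted p = 3.17e-06).

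**Figure D2:**
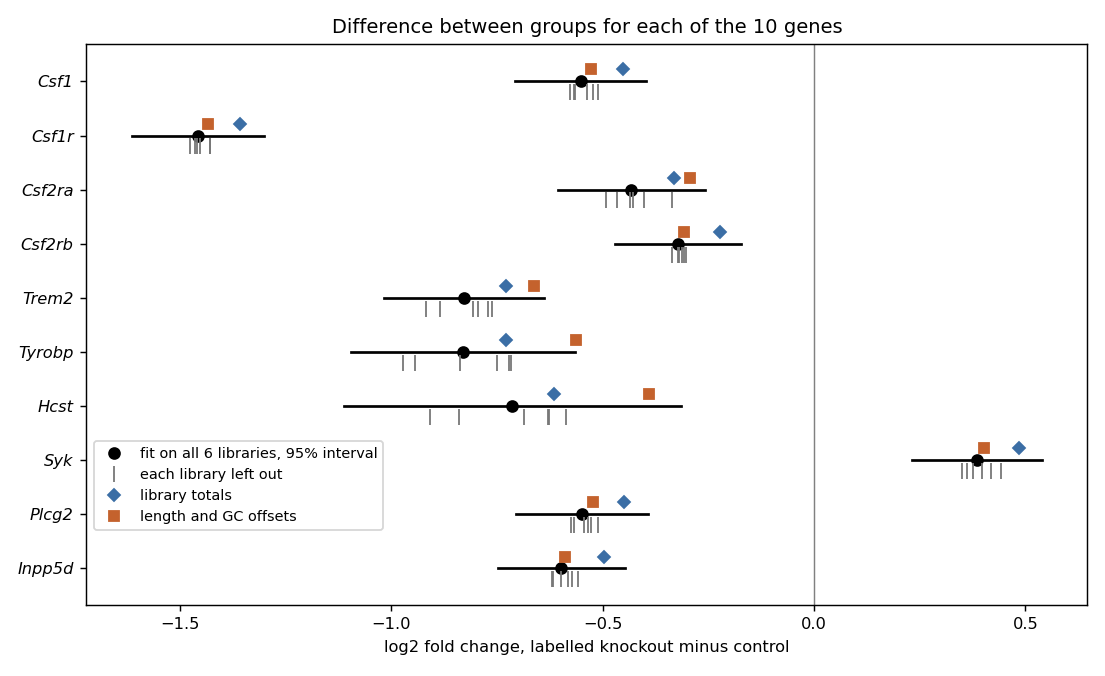
Log2 fold change of each of the 10 genes (horizontal axis, labelled knockout minus control): the fit on all 6 libraries with its 95% interval (black), each library left out in turn (grey ticks), library totals in place of TMM factors (blue) and offsets for length and GC content (orange). No point crosses 0, and the offsets move Csf2ra, Trem2, Tyrobp and Hcst toward 0 the most, with Hcst at -0.39.

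Levels between genes were compared per kilobase of the longest coding transcript. In the controls Tyrobp and Trem2 led, at 295 ± 57.9 and 283 ± 24.7 CPM per kilobase (SD, n = 3), and their values overlapped. Plcg2, Csf1r and Csf2ra followed at 109, 107 and 99.6 CPM per kilobase, again with overlapping values. Csf2rb at 75.7 and Csf1 at 73.5 CPM per kilobase could not be ordered either. Inpp5d at 27.5, Syk at 23.7 and Hcst at 21.7 CPM per kilobase were lowest. Inpp5d and Syk did not overlap, with lowest and highest values of 26.3 and 25.0, whereas Syk and Hcst did. In the libraries labelled Tfam knockout Tyrobp and Trem2 still led, at 165 ± 25.7 and 159 ± 17.2 CPM per kilobase. Csf1r dropped from the fourth place to the seventh, at 38.8 ± 1.33 CPM per kilobase, below both GM-CSF receptor chains and Csf1. Syk at 30.9 CPM per kilobase stood above Inpp5d at 18.2, the reverse of their order in the controls. In this group the values of Tyrobp and Trem2, and of Plcg2 at 74.2 and Csf2ra at 73.7 CPM per kilobase, overlapped, and no other neighbours in the order did. This order rests on the chosen transcript of each gene, and reads need not come from that isoform.

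**Figure D3:**
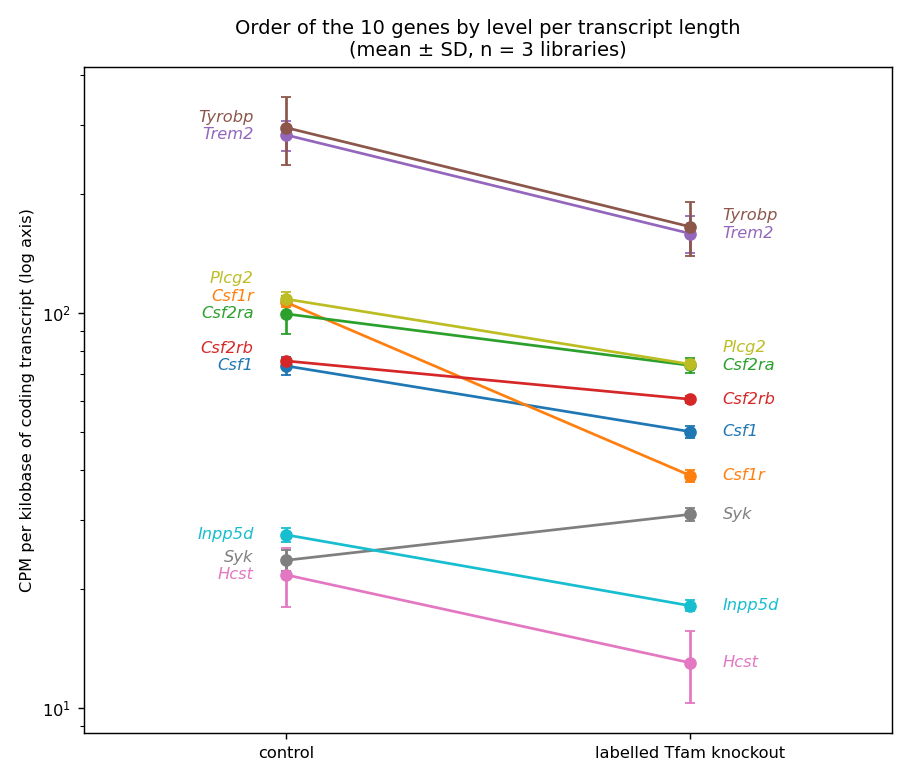
Level of each gene in CPM per kilobase of its coding transcript (log axis) in the controls (left) and the libraries labelled Tfam knockout (right), as mean ± SD of 3 libraries. The line for Csf1r crosses those of Csf1, Csf2rb and Csf2ra on its way from 107 to 38.8, and the lines of Syk and Inpp5d cross.

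Ratios of raw counts within a library do not depend on the scaling between libraries, and 6 pairs were compared. They are not corrected for transcript length, and the short transcripts, such as those of Tyrobp and Hcst, moved with the library. With 3 libraries in each group the exact two-sided permutation test cannot go below p = 0.1, so none could pass a threshold of 0.05. The ligand to receptor ratio Csf1 to Csf1r was 0.593, 0.601 and 0.644 in the controls, against 1.14, 1.22 and 1.09 in the labelled knockout libraries. Csf1 had fewer counts than its receptor in every control and more in every labelled knockout library, a shift of 0.91 on the log2 scale (exact permutation p = 0.1, adjusted 0.2 over the 6 pairs). The Plcg2 to Syk ratio was 3.59, 3.72 and 3.72 in the controls, against 1.97, 1.85 and 1.95 in the labelled knockout libraries. This was a log2 difference of -0.93 with no overlap (exact permutation p = 0.1, adjusted 0.2). The Inpp5d to Syk ratio went from 1.04, 1.09 and 1.07 to 0.548, 0.540 and 0.534, a log2 difference of -0.98 (exact permutation p = 0.1, adjusted 0.2). In these 3 pairs the groups lay far apart relative to their spread.

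The other 3 pairs overlapped. The Trem2 to Tyrobp ratio was 2.03, 1.60 and 1.70 in the controls, against 1.71, 1.89 and 1.68 in the labelled knockout libraries, a log2 difference of -0.0058 (exact permutation p = 0.9, adjusted 0.9). The SD of this log2 ratio among the controls was 0.18 (n = 3), larger than the difference. Control replicate 1, with the highest ratio, also had the lowest median deviation of short transcripts (-0.14). With length and GC offsets the log2 fold changes of Trem2 and Tyrobp were -0.66 and -0.56. Hcst to Tyrobp differed by 0.084 (exact permutation p = 0.6, adjusted 0.72) and Csf2ra to Csf2rb by -0.11 (exact permutation p = 0.4, adjusted 0.6), both on the log2 scale. Single libraries moved both values. Hcst to Tyrobp ranged from 0.028 without labelled knockout replicate 1 to 0.19 without replicate 3 of that group. Csf2ra to Csf2rb ranged from -0.19 without control replicate 1 to -0.023 without control replicate 3.

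**Figure D4:**
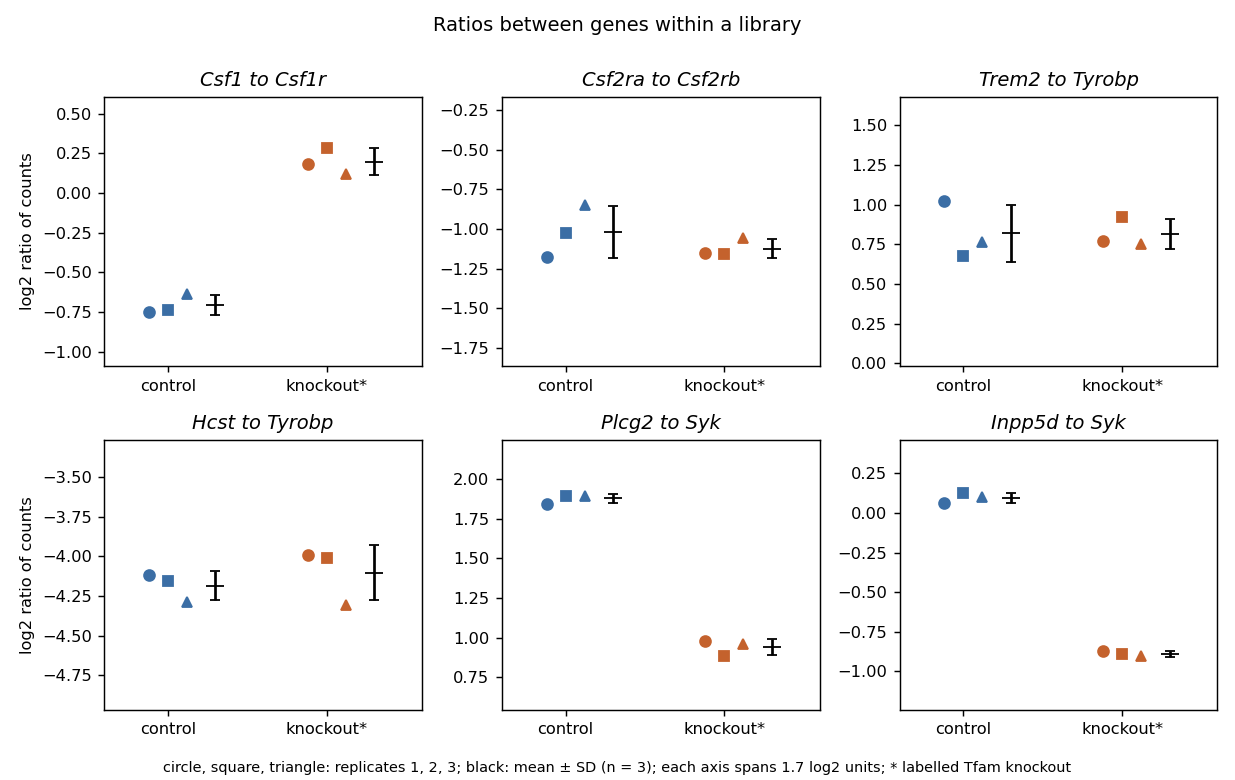
Log2 ratio of the counts of 2 genes within each library (vertical axes of equal span), for 6 pairs, with the mean ± SD of 3 libraries in black. Csf1 to Csf1r, Plcg2 to Syk and Inpp5d to Syk separate the groups, while the ratio of Trem2 to Tyrobp differs by -0.0058.

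The ETS factor PU.1, encoded by Spi1, is known to act at the genes of macrophage receptors, and its core motif GAGGAA was looked for on both strands of the promoters. RefSeq windows of 250 bases before the transcription start (build GRCm38.p6) were found for 7 of the 10 genes, in 8 windows. Csf1r, Tyrobp and Csf2rb had none. In 7 of the 8, the bases after the start lay in a GENCODE transcript of the gene. The other was the Plcg2 window, which held no motif and is not printed. The motif was present in 4 of the 8 windows, and 23.3% of 32851 RefSeq windows of that length hold it on either strand. The windows with the motif are printed because they span 3 genes that were lower and Syk, which was higher. The window of the upstream Syk start, which lacks the motif, is printed beside that of the downstream start. Each reads 5′ to 3′ on the strand of the gene up to the base before the start, with the motif in capitals.
Inpp5d, chr1:87620062-87620311 (+): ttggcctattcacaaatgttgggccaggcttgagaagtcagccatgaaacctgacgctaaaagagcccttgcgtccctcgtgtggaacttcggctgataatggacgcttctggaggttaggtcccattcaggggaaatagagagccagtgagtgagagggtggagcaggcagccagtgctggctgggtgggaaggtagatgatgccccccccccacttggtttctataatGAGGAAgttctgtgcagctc
Syk start 1, chr13:52583187-52583436 (+): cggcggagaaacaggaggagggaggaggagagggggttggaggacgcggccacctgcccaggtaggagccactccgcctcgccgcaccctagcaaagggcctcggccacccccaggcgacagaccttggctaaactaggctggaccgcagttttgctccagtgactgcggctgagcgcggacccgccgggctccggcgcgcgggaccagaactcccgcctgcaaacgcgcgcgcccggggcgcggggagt
Syk start 2, chr13:52596632-52596881 (+): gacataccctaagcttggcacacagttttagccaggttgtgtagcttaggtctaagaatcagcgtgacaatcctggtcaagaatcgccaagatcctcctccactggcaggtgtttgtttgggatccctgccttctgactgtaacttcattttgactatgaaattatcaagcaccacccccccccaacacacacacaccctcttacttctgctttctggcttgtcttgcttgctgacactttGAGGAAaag
Trem2, chr17:48346151-48346400 (+): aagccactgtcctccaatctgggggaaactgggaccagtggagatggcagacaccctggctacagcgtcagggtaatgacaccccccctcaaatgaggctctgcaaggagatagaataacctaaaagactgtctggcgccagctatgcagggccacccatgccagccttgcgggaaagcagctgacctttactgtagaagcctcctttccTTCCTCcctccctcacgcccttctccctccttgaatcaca
Csf2ra, chr19:61228419-61228668 (-): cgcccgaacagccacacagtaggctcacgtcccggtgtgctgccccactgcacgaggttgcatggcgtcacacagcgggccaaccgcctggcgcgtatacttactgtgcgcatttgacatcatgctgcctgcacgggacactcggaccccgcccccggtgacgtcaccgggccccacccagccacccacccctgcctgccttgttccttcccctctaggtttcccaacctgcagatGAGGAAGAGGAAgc
The Inpp5d window held its copy 20 bases before the start, and the Trem2 window held a copy on the other strand (TTCCTC as printed), 40 bases before the start. Csf2ra held 2 copies next to each other. The copy in the downstream Syk window lay 9 bases before the start. Csf1, Hcst and Plcg2 held no GAGGAA in these windows. A match of 6 letters is a description of the sequence and does not show binding. Spi1 mRNA itself was 269 ± 16.7 CPM in the controls and 205 ± 24.6 CPM in the labelled knockout libraries (SD, n = 3), a log2 fold change of -0.39 (edgeR adjusted p = 0.00149).

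Around the 10 genes, 7 lists of other pathway genes were counted, also chosen with earlier results of these data known. Of 107 tested list genes 18 were higher, 51 lower and 38 did not pass, and their median log2 fold change was -0.22. So 64.5% were called against the background of 44.2%. That background includes genes with few counts, and none matched for level was made. Under a filter of 5 CPM in at least 3 libraries, 5301 of 10075 tested genes were called. Scaling by library totals moved all genes upward by 0.099, so the direction of small differences depends on it. Lists were described by counts and medians only.

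Among other colony-stimulating factors and receptors, 7 of 13 were in the table and 5 could be tested. Of these 5, 2 were higher, 2 lower and 1 did not pass (median 0.26), where 21.3% of all tested genes were higher and 22.9% lower. Csf3, encoding the granulocyte factor G-CSF, rose from 0.498, 0.913 and 1.27 CPM in the controls to 28.4, 23.7 and 26.6 CPM in the labelled knockout libraries, a log2 fold change of 5.00 (edgeR adjusted p = 1.10e-11). This was the largest difference in any of the lists, while its receptor Csf3r stood at 0.26 and did not pass (edgeR adjusted p = 0.46). Il34, the other CSF1R ligand, fell from 6.68, 6.91 and 6.86 CPM to 3.07, 3.85 and 4.53 CPM (log2 fold change -0.85, edgeR adjusted p = 0.00217). Kitl, the ligand of the related receptor KIT, rose by 0.58 on the log2 scale (edgeR adjusted p = 0.000115). Csf2, the gene of GM-CSF itself, was listed but was not among the genes in the count table.

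The kinases, adaptors and target genes that relay CSF1R and GM-CSF receptor signals were called at a share near the background: of 35 tested, 7 were higher, 8 lower and 20 did not pass, 42.9% called against 44.2% (median 0.097). Pim1, a kinase gene induced by STAT5, rose from a mean of 39.4 to 123 CPM (log2 fold change 1.65, edgeR adjusted p = 1.09e-10). Jak2, the kinase bound to the GM-CSF receptor beta chain, rose from 24.8 to 49.2 CPM (log2 fold change 0.99, edgeR adjusted p = 5.23e-07). Gab3, a docking protein downstream of CSF1R, fell by 1.07 on the log2 scale (edgeR adjusted p = 0.000145). Gab2, Fyn and Nras, named after their values were seen, each lost the call without at least 1 library, and Gab2 stood at 0.13, from 0.24, without labelled knockout replicate 2. With library totals this list split into 14 higher and 7 lower.

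TREM family genes, receptors that use TYROBP or HCST, and the sister ITAM adaptors formed 1 list, which included no higher gene. Of 13 tested, 9 were lower and 4 did not pass (median -0.61), where 22.9% of all tested genes were lower. The 9, listed after their values were seen, were Trem1, Trem3, Treml1, Clec5a, Sirpb1b, Pilrb1, Pilrb2, Cd300lb and Fcer1g. Trem1, an amplifier of inflammatory signals, fell from 3.16, 3.00 and 1.98 CPM to 0.519, 0.402 and 0.209 CPM (log2 fold change -2.79, edgeR adjusted p = 3.12e-05). Treml1 fell by 1.43 and Sirpb1b by 1.22 on the log2 scale (edgeR adjusted p = 1.80e-05 and 0.00102). Fcer1g, the Fc receptor gamma chain and like TYROBP an ITAM adaptor that recruits SYK, was at 498, 692 and 625 CPM in the controls and 388, 356 and 386 CPM in the labelled knockout libraries (log2 fold change -0.68, edgeR adjusted p = 3.63e-05). As for Tyrobp, control replicate 1 was the lowest control and the groups did not overlap. Under the alternatives the log2 fold change of Fcer1g ranged from -0.79 to -0.46. Its call held in 16 of 17 of them and was lost in the 1.5-fold test. The part of transcript length in its difference was not otherwise tested. The calls of Trem3 and Clec5a were not stable. Trem3 kept its call in 7 of 17 alternatives and stood at -0.27 without labelled knockout replicate 2, from -0.50. It also lost the call without any single control library and with DESeq2 (adjusted p = 0.0503). Clec5a lost its call without control replicate 1 or 2 or labelled knockout replicate 2 (edgeR adjusted p = 0.0634, 0.0625 and 0.0523). With library totals neither was called, which left 7 lower.

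Of 23 tested genes that relay the signal below SYK, 12 were lower, 5 higher and 6 did not pass (median -0.36), where 22.9% of all tested genes were lower and 21.3% higher. Tec, a TEC family kinase, fell from a mean of 158 to 67.0 CPM (log2 fold change -1.24, edgeR adjusted p = 1.62e-09). The protein kinase C gene Prkcb fell by 1.17 and the membrane adaptor Lat by 0.99 on the log2 scale (edgeR adjusted p = 0.00147 and 9.70e-07). The 5 higher genes were Vav2 (log2 fold change 0.77), Malt1 (0.64), Bcl10 (0.30), Blnk (0.30) and Plcg1 (0.91). MALT1 and BCL10 act together in the complex that carries ITAM signals to NF-κB. Plcg1, the sister of Plcg2, rose from 2.03, 1.37 and 1.49 CPM to 3.07, 3.39 and 2.93 CPM (edgeR adjusted p = 0.0142, and 0.0588 without control replicate 2). It remained far below Plcg2, whose lowest library had 313 CPM.

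Phosphatases, ubiquitin ligases and inhibitory receptors, many of which restrain these pathways, are the group to which Inpp5d belongs. Of 20 tested, 14 were lower, 2 higher and 4 did not pass (median -0.36), where 22.9% of all tested genes were lower and 21.3% higher. Dok3, an adaptor that dampens ITAM signals, fell from 174, 185 and 190 CPM to 71.3, 57.6 and 65.9 CPM (log2 fold change -1.49, edgeR adjusted p = 3.13e-10). Fcgr2b, the inhibitory Fc receptor that recruits SHIP1, fell from a mean of 495 to 229 CPM (log2 fold change -1.11, edgeR adjusted p = 6.01e-09). Sla2, an adaptor that lowers receptor signalling, fell by 1.24 on the log2 scale (edgeR adjusted p = 0.000376). The 2 higher genes were the lipid phosphatase gene Inpp4b (log2 fold change 0.50) and Ptpn11 (0.36), which encodes the phosphatase SHP2. Inppl1, Dok1, Dok2 and Clec12a, named after their values were seen, each lost the call without at least 1 library. The count of lower genes was 11 without control replicate 3 or without labelled knockout replicate 3. With library totals 11 were lower and 3 higher.

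**Figure D5:**
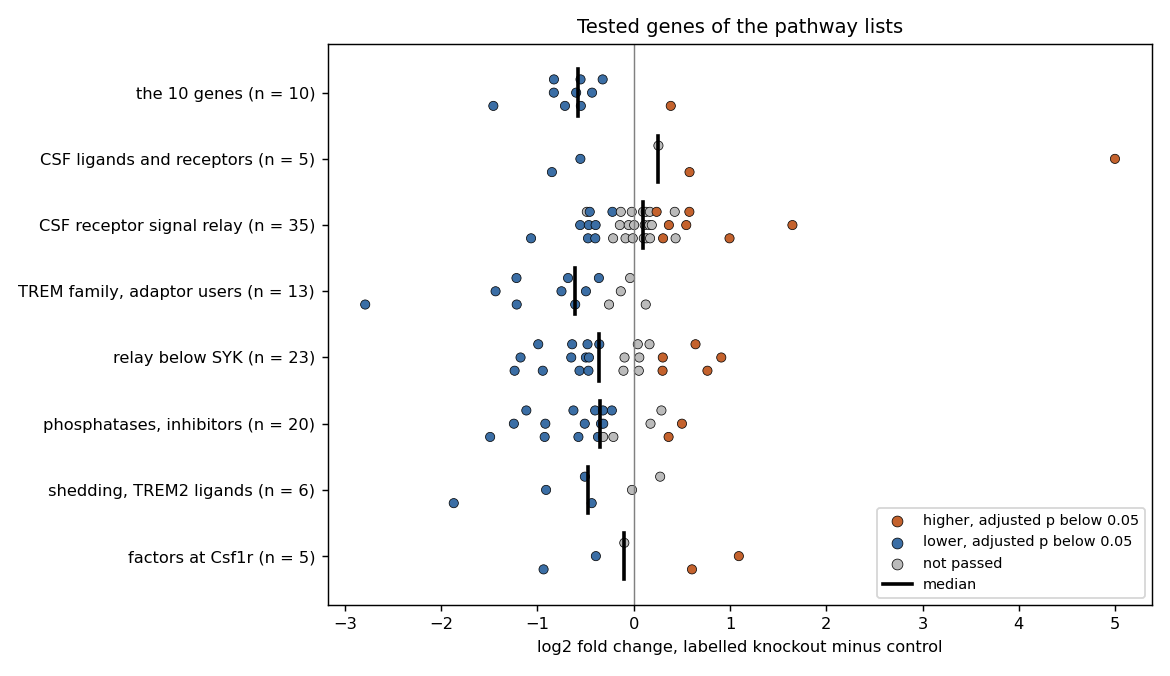
Log2 fold change (horizontal axis, labelled knockout minus control) of the tested genes in each pathway list, 1 point per gene, coloured by the edgeR call at an adjusted p below 0.05, with a black bar at each median. The TREM family and adaptor users show no higher gene among 13, and Csf3 at 5.00 stands apart from the other genes.

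Of 6 tested genes for receptor shedding, MS4A proteins and TREM2 ligands, 4 were lower and 2 did not pass (median -0.47). The share of lower genes over all tested genes was 22.9%. Apoe, encoding a lipoprotein that TREM2 binds, fell from 297, 376 and 369 CPM to 103, 89.1 and 92.6 CPM (log2 fold change -1.87, edgeR adjusted p = 8.89e-11). Lgals3, another gene for a TREM2 ligand, fell by 0.91 on the log2 scale (edgeR adjusted p = 2.24e-06). Clu, also encoding a lipoprotein ligand, fell by 0.44 (edgeR adjusted p = 0.00146). Adam17, encoding a protease that sheds CSF1R and TREM2 from the surface, fell from a mean of 297 to 209 CPM (log2 fold change -0.51, edgeR adjusted p = 2.79e-05). The related protease gene Adam10 stood at -0.017 and did not pass (edgeR adjusted p = 0.881).

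Of 5 tested transcription factors known to act at the Csf1r locus, 2 were lower, 2 higher and 1 did not pass (median -0.098). The shares over all tested genes were 22.9% lower and 21.3% higher. Spi1 and Cebpa were lower, Cebpa by 0.94 on the log2 scale (edgeR adjusted p = 0.000819). Ets2 rose from 59.5, 54.8 and 54.5 CPM to 123, 124 and 114 CPM (log2 fold change 1.09, edgeR adjusted p = 4.76e-09). Cebpb was at 68.5, 155 and 165 CPM in the controls and 200, 215 and 170 CPM in the labelled knockout libraries, with control replicate 1 far below the other controls. Its log2 fold change of 0.61 (edgeR adjusted p = 0.0235) was no longer called without labelled knockout replicate 1 or 2 (0.0505 and 0.0645) or by DESeq2 (0.216). Without control replicate 1 the log2 fold change was 0.30 (edgeR adjusted p = 0.0136). Runx1 stood at -0.098 and did not pass (edgeR adjusted p = 0.331).

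Across the 6 libraries, the genes whose log2 CPM ran most like Csf1r were Gsn, Pfkp, Gys1, Gbe1 and Ctsf, all at Pearson r = 0.999. These correlations describe 6 libraries in 2 groups, and 1126 of 10000 genes compared exceeded r = 0.95 with Csf1r. The genes most like Tyrobp were Polr2f, Pf4, 2810025M15Rik, Dand5 and Pfn1, at r of 0.997 to 0.999, and 511 genes exceeded 0.95.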

How the data were processed

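Per the labels' protocols, TRIzol-extracted poly(A) RNA went into unstranded NEBNext Ultra RNA libraries. The submitters' processing notes name featureCounts 2.0.0, SAMtools 1.9, HISAT2 2.1.0 and bcl2fastq 2.17, and build GRCm39. The deposited table of counts gives raw reads per gene as whole numbers, without scaling by the authors, and its genes all reach 6 counts summed over the libraries. The authors' deposited log2 table holds, from its values, log2 of the count scaled to a common library total plus 8, and was used only as an alternative. Total counts of 13850691 to 28418133 per library set the precision.

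The test was the quasi-likelihood F test of edgeR 4.0.16 (R 4.3.3) on the 2 groups, with TMM factors after filterByExpr and p-values adjusted by Benjamini-Hochberg over 13403 tested genes. The other 4469 genes had counts too low to test, but all 10 genes of interest passed. Groups were taken from the genotype labels. Ratios used log2 of counts plus 0.5 and an exact permutation test. This fit was also tested on simulated data with known fold changes. Replicates of a group differed by more than the sampling noise of reads, so none looked like 1 library sequenced again. This check cannot tell separate cultures from separate libraries made from 1 culture or 1 RNA sample. Same-numbered replicates did not deviate together (r of -0.10, -0.11 and 0.040), and the samples were treated as unpaired. With 3 libraries per group, this cannot exclude that same-numbered samples were handled together.

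The 10 genes and the 7 lists were chosen with earlier results of these data known. In each list the text names the 3 called genes that changed most and averaged 1 CPM or more, every gene of a direction that had 5 or fewer, and Csf2rb2, Fcer1g, Il34, Csf3 and Spi1. Hmgxb3, Csf3r, Adam10 and Runx1 were named after their values were seen. For likeness, genes averaging 5 CPM or more were ranked by Pearson r of log2 CPM.

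Transcript lengths, GC content and coding stretches came from GENCODE M21 and promoter windows from RefSeq, both on GRCm38, another build than the authors'. They were matched by symbol, and 99.5% of tested genes had a length. Alternatives were DESeq2 1.42.0, voom of limma 3.58.1, other scalings and filters, a 1.5-fold test, the replicate block, the authors' log2 table and each library left out. Length and GC offsets, and the removal of transcripts under 1000 bases, were added after the data were seen.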

Additional observations from a re-analysis of the deposited data

How the results depend on the processing

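Of 178 values of the 10 genes under the alternatives, 169 kept their direction and call, 9 kept their direction but lost the call, and 0 changed direction. Of the 9, 8 came from the test against a 1.5-fold change and the other was Hcst with length and GC offsets (log2 fold change -0.39). The 1.5-fold test left 1094 of 5926 genes (389 higher, 705 lower), 2 of the 10 genes (Csf1r and Trem2, both lower, with 0 higher), and 1, 3, 4, 3, 4, 2 and 1 genes of the 7 lists in the order of the text. Library totals called 6206 genes, 61.8% of them higher against 48.2% with TMM factors, and the authors' log2 table called 6207, 61.6% of them higher. With the replicate number as a block, edgeR called 5255 genes and all 10 described here, and no call among the 10 changed. Leaving out each library in turn gave 4847 to 5743 called genes and 10 of the 10 genes each time. The Trem2 to Tyrobp log2 ratio difference then ranged from -0.079 to 0.095, changing sign without control replicate 1 (0.095) or without labelled knockout replicate 1 (0.016) or 3 (0.026). The cause was not tested. Without transcripts under 1000 bases, Tyrobp and Hcst are not tested and the other 8 kept their calls. Depth limits Hcst most, with 72 to 221 counts per library.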
